A study of Mus musculus with 25 samples.

Results

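The genes described here encode the voltage-gated sodium channels, the voltage-gated calcium channels and the hyperpolarization-activated HCN channels of the mouse. They were taken by name from the deposited tables of 24411 genes, as every gene named Scn with a number and an a or b ending, every gene named Cacna, Cacnb or Cacng, and the 4 Hcn genes. The rule gave 43 genes, of which 23 encode a pore and 20 an auxiliary subunit. The pore genes are 9 sodium channel genes, 4 of the Cav1 class, 3 of the Cav2 class, 3 of the Cav3 class and 4 HCN genes. The auxiliary genes are 4 sodium channel beta subunits, 4 alpha2delta subunits, 4 Cav beta subunits and 8 gamma subunits. The gene of the sodium channel Nav1.2 stands in the tables under its older name Scn2a1, which the rule does not match, so it is not among the 43 and its values are given only beside theirs.

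Nuclei carrying the neuronal protein NeuN were sorted from the hippocampi of male mice and their RNA was sequenced in 3 experiments with 25 libraries, each experiment in a table that was normalized on its own. The aging experiment compared 3 libraries of wild-type mice aged 3 months (young) with 2 of wild-type mice aged 18 months (aged). The overexpression experiment compared young mice whose hippocampus had received a lentivirus carrying Ftl1, the ferritin light chain gene, under the synapsin-1 promoter (7 Ftl1 OE-labelled libraries) with mice that had received GFP under the same promoter (5 controls). The knockdown experiment compared aged mice that had received a lentivirus whose short hairpin RNA targets Ftl1 (4 Ftl1 KD-labelled libraries) with mice given a hairpin against luciferase (4 sh-Luc controls). The injections of both virus experiments were aimed at CA1 and the dentate gyrus, so a sorted hippocampus can also hold nuclei that took up no virus. In the overexpression experiment the synapsin-1 promoter restricts the transgene to neurons. For the hairpin virus the paper's methods name no neuron-specific promoter. By the description of the study, each library of the aging experiment came from a separate mouse. For the virus experiments the labels do not say whether a library is 1 animal, so the p-values there measure the spread between libraries, which may be technical.

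The measure throughout is the normalized count, the reads of a gene in a library divided by that library's size factor. Libraries held 7969282 to 9537872 reads in the aging experiment, 9943996 to 17034325 in the overexpression experiment and only 48902 to 358560 in the knockdown experiment. Ftl1 itself read 1685 to 2141 normalized counts in young and 4247 and 4272 in aged libraries. It read 4580 to 28310 in the GFP controls against 4737 to 7663 in the Ftl1 OE-labelled libraries, and 24.2 to 56.2 in the sh-Luc controls against 106 to 140 in those labelled Ftl1 KD. Since the RNA of the gene did not follow the labels in either virus experiment, the groups are named below by their labels. By western blot of the hippocampus, the paper reported more FTL1 protein after the overexpression virus and less after the hairpin virus. One GFP control, replicate 9905, stood apart, with the highest Ftl1 value and the fewest genes detected in its experiment (12281). All 6 neuronal markers reached the limit for testing in the aging and overexpression experiments and 4 of 6 in the knockdown experiment, but so did all 5 oligodendrocyte and all 6 microglial markers in the first pair, so the sorted nuclei were not free of glial RNA.

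Voltage-gated sodium channels carry the upstroke of the action potential, and their beta subunits set gating and surface level. Calcium channels couple depolarization to calcium entry: Cav1 channels signal from the soma and dendrites to transcription, Cav2 channels trigger transmitter release, and Cav3 channels open near rest and favour bursts. The alpha2delta and Cav beta subunits carry the calcium channel pore to the membrane, and most gamma subunits (the TARPs) act mainly on AMPA receptors. HCN channels open on hyperpolarization and damp dendritic input in hippocampal pyramidal cells.

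The sequence before the start site is shown for the members that could be tested in all 3 experiments, on which the knockdown comparison turns, where the RefSeq promoter table (GRCm38.p6) had an entry. Each is the 250 bases before a RefSeq start, 5′ to 3′ on the gene's own strand, with every CpG dinucleotide in capitals.

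Scn8a (chr15:100870395-100870644, plus strand): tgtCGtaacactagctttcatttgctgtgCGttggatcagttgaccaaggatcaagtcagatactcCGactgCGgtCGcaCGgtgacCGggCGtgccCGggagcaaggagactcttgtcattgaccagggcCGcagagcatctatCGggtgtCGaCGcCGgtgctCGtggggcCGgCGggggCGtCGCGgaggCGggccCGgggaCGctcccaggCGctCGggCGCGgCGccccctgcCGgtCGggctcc

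Cacna1e (chr1:154725921-154726170, minus strand): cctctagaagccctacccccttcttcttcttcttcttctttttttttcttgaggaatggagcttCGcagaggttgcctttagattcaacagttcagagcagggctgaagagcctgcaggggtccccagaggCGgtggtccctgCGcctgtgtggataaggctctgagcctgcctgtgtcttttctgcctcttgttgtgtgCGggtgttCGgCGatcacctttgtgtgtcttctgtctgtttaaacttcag

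Scn2b (chr9:45117626-45117875, plus strand): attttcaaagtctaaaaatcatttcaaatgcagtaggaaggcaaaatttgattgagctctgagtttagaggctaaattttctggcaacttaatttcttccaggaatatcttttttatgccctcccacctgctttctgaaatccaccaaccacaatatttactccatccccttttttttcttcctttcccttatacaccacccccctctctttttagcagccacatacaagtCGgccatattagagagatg

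Cacnb3 (chr15:98632078-98632327, plus strand): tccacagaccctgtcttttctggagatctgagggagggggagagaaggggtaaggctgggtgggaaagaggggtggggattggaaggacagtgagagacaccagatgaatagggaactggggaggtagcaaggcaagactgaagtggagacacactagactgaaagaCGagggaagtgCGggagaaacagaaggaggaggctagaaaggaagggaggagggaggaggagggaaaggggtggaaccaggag

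The 4 sequences differ widely in base composition. The Scn8a sequence holds 30 CpG dinucleotides and is 68.0% G or C, while the Scn2b sequence holds 1 and is 38.4% G or C. Cacna1e lies between them with 6 CpGs, and Cacnb3 holds 2. Over the 32851 promoters of the table the median was 6 CpGs, with quartiles of 2 and 16. Of the 43 members, 31 had an entry, with 41 starts, and 12 (Scn3b among them) had none. The median CpG number was 7 for the 16 pore genes and 13.5 for the 15 auxiliary genes with an entry. A GC box (GGGCGG, searched on both strands) stood in 17 of the 41 member promoters (41.5%) and in 32.7% of all promoters. A TATA box (TATAAA, both strands) stood in 1 of 41 (2.44%) and in 12.4% of all. None of the 41 held the letters CAGCACC, part of the RE1 element, or the cAMP response element TGACGTCA, which stood in 5.73% and 1.55% of all promoters. The 4 sequences printed above hold none of these 4 motifs. Cacnb3 and Scn8a have 2 starts each in the table. Averaged over both starts, Scn8a had 19.5 CpGs and Cacnb3 had 12.5, so the contrast between their printed sequences holds for those starts only. The medians for pore and auxiliary genes used such averages per gene. In the GENCODE M21 annotation all 4 genes begin further out than the printed start, so each sequence belongs to 1 start among several. Those of Scn8a, Cacna1e and Cacnb3 lie wholly within the annotated gene, and that of Scn2b lies across the annotated start of its gene.

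In young neuronal nuclei the highest channel gene per length was an auxiliary subunit. Levels between genes are compared as normalized counts per kb of the longest annotated transcript, as mean ± SD over the 3 young libraries. Scn2b, the beta2 subunit that is linked to the sodium channel by a disulfide bond, read 2089 ± 335 per kb, and Scn3b, the beta3 subunit, read 1178 ± 406. The highest pore genes were Scn8a (Nav1.6, the main sodium channel of the axon initial segment), at 454 ± 17.3 per kb, and Cacna1e (Cav2.3, the R-type channel), at 404 ± 66.9. The next in order were the alpha2delta genes Cacna2d1 at 372 ± 56.4 and Cacna2d3 at 364 ± 58.2. Each of these 4 differed from its neighbour by less than the larger of their SDs.

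Scn1a (Nav1.1, the main sodium channel of many inhibitory neurons) read 295 ± 41.1 per kb and Scn3a (Nav1.3) read 238 ± 17.9. The non-member Scn2a1 (Nav1.2) stood above Scn8a in mean, at 539 ± 72.7 per kb. Cacnb3 (266 ± 71.6), Cacng3 (264 ± 65.0) and Cacna1b (Cav2.2, the N-type channel, 260 ± 19.2) could not be ordered within their spread. Cacna1a, the P/Q-type channel of many synapses, read only 42.96 ± 4.22 per kb.

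The T-type and L-type genes sat lower, with Cacna1h at 102 ± 14.3, Cacna1d at 84.5 ± 13.9, Cacna1g at 79.2 ± 27.1 and Cacna1c at 64.9 ± 7.86 per kb. The HCN genes were in the lower part of the order. Hcn3 read 33.2 ± 23.7 and Hcn2 2.51 ± 1.46 per kb, while Hcn4 was below the limit for testing. The 17 tested pore genes had a median of 64.9 per kb and the 16 tested auxiliary genes one of 148. Genes best known from muscle, retina and sensory neurons were at or near 0. Scn4a, Scn11a, Cacng1 and Cacng4 had no read in any of the 5 aging libraries, and Scn10a, Cacna1s, Cacna1f and Cacng6 had under 10 normalized counts in each.

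**Figure D1:**
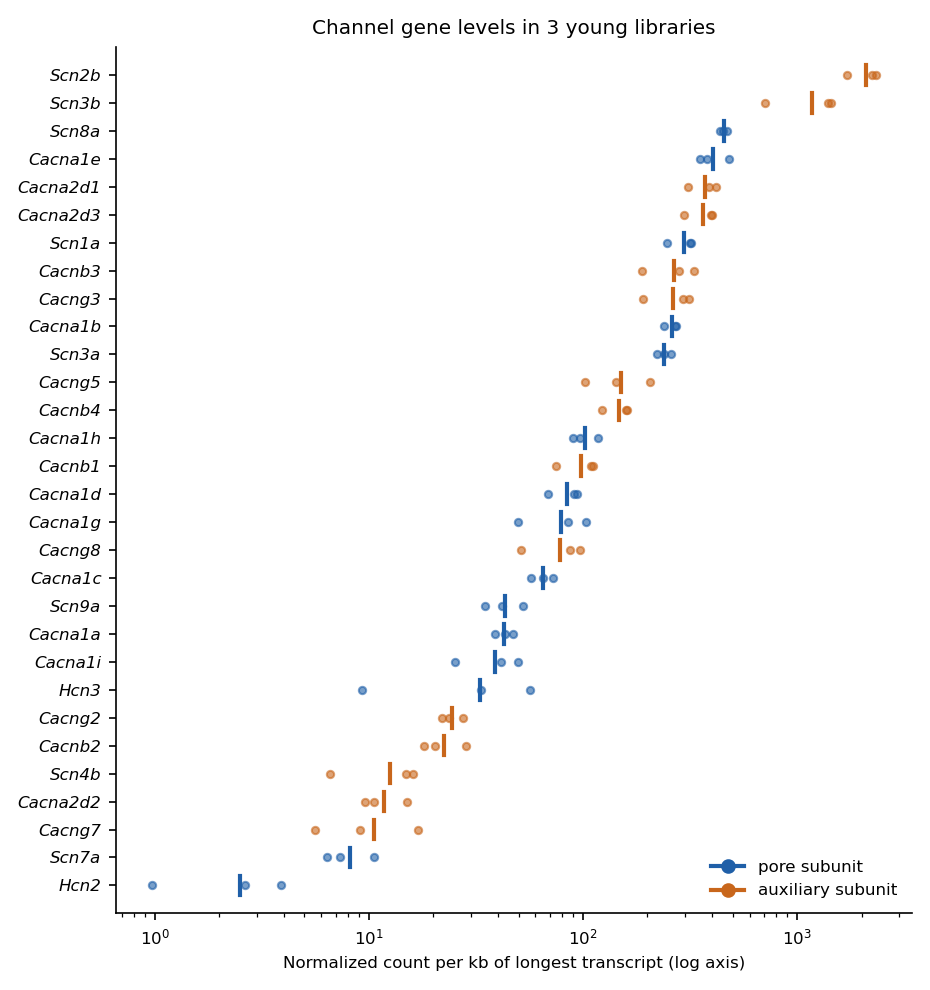
Normalized count per kb of the longest transcript (log axis) of 30 of the channel genes tested in the aging experiment. Each point is 1 of 3 young libraries and the bar is their mean, with pore subunits in blue and auxiliary subunits in orange; Scn2b and Scn3b lie above all pore genes in mean, and the HCN genes lie in the lower part.

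With age, no channel gene passed the test. A gene was tested where its mean normalized count over the libraries of the table was 10 or more, which kept 33 of the 43 members (17 pore, 16 auxiliary), and it was called at an adjusted p of 0.05 or less from limma on log2(normalized count + 1) with a log2 fold change of 0.5 or more in size. The count of members called was 0, as it was over all 13712 genes (0%). edgeR and DESeq2 on the recovered reads also called 0 members, a count given only as a description. The smallest adjusted p among the members was 0.441. At an unadjusted limma p no higher than 0.05, 0 members were higher and 2 were lower in aged libraries, where 2.90% of all genes were higher and 5.04% lower. On the log2 scale the difference was above 0 for 23 members and below 0 for 10, against 48.3% of all genes above 0. Its median was 0.27 for the pore genes, 0.11 for the auxiliary genes and -0.03 for all genes tested. The pore median was 0.08 without aged replicate 2 and 0.46 without aged replicate 3, so the size of the shift depended on which of the 2 aged libraries was used. The auxiliary median was -0.01 without young replicate 1.

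Cacng5, a gamma subunit of the type II TARPs that acts on AMPA receptors, had the smallest p. It read 377, 761 and 529 normalized counts in young and 118 and 263 in aged libraries. Both aged libraries lay below all 3 young ones. The log2 fold change was -1.60 (SE 0.45, limma, adjusted p = 0.441; exact permutation p = 0.1, the smallest that 3 against 2 libraries can give), and it was lower under every alternative, between -2.17 and -1.02.

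Scn9a (Nav1.7, best known from sensory neurons) also separated. It read 344, 516 and 412 normalized counts in young and 292 and 183 in aged libraries. The difference was a log2 fold change of -0.85 (SE 0.39, limma, adjusted p = 0.617). Its exons overlap those of Gm13629 on the other strand, and whether reads were counted by strand is not given in the sources used here.

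Among the calcium channel auxiliaries, Cacnb3 (the Cav beta3 subunit) read 902, 767 and 516 normalized counts in young and 1228 and 1063 in aged libraries. The aged libraries were both above the young ones, at a log2 fold change of 0.69 (SE 0.32, limma, adjusted p = 0.630). The alpha2delta genes had values on both sides. Cacna2d1, the binding site of gabapentin, read 3114, 2301 and 2886 in young and 1831 and 2017 in aged libraries, a log2 fold change of -0.51 (SE 0.27). Cacna2d3 read 1473, 1096 and 1465 in young and 1534 and 2179 in aged libraries, a log2 fold change of 0.46 (SE 0.29). Neither passed the test. Cacnb2 had a log2 fold change of 0.74 (SE 0.56) and Cacnb4 one of -0.13 (SE 0.28).

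All 3 T-type pore genes had a log2 fold change above 0, without passing the test. The same held for every tested Cav1, Cav2 and HCN pore gene, so this direction was not particular to the T-type genes. Cacna1h (Cav3.2) read 969, 742 and 800 normalized counts in young and 1238 and 1206 in aged libraries, and Cacna1i (Cav3.3) read 407, 248 and 486 against 819 and 412. Their log2 fold changes were 0.56 (SE 0.28) and 0.66 (SE 0.41). Exons of Cacna1h overlap those of Tpsg1 on the other strand.

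The main sodium channel pores differed little between the ages. Scn8a read 5402, 5010 and 5159 normalized counts in young and 6344 and 5507 in aged libraries, a log2 fold change of 0.19 (SE 0.26). Scn1a had a log2 fold change of 0.03 (SE 0.27), Scn3a one of 0.00 (SE 0.27), and the non-member Scn2a1 one of -0.18 (SE 0.27). These errors were among the smallest of the set, and shifts within such an error were not detectable with 5 libraries. Scn2b read 7949 to 10849 in young and 7099 and 11481 in aged libraries, Cacna1e read 5272 to 7164 against 8254 and 6275, Cacna1d read 662 to 910 against 1554 and 706, and Cacng3 read 528 to 864 against 812 and 867.

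Hcn2 and Hcn3 overlapped between the ages. Hcn3 ranged from 37.1 to 227 in young and was 53.4 and 401 in aged libraries, and its exons overlap those of Pklr on the other strand. Hcn2 stayed at 3.11 to 12.4 in young and was 51.4 and 7.35 in aged libraries. The widest error was that of Scn4b, the beta4 subunit, which read 79.9, 32.9 and 74.5 in young, 160.1 in aged replicate 2 and 0 in aged replicate 3. Young and aged libraries were fully apart for 9 of the 33 members tested, and for 24.7% of all genes.

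The 43 genes together took 0.565 to 0.592% of the reads outside Rn45s (the ribosomal RNA precursor gene) in young and 0.588 and 0.625% in aged libraries. The pore genes took 0.268 to 0.317% in young and 0.374 and 0.291% in aged libraries, and the auxiliary genes 0.247 to 0.311% against 0.251 and 0.297%. The mean log2 level of the auxiliary genes minus that of the pore genes was -0.27 to -0.08 in young and -0.48 and -0.46 in aged libraries. In aged replicate 3 the auxiliary mean includes Scn4b at 0, which read 32.9 to 79.9 in young libraries and 160.1 in aged replicate 2. How far this low gene set the difference was not tested. The granule cell markers summed to 1927 to 3252 in young and 3091 and 5094 in aged libraries, and Rn45s took 2.63 to 4.0% of the reads against 5.91 and 6.42%. The part of these in the channel values was not tested. In bulk nuclei, fewer cells of a type and less RNA per cell cannot be told apart.

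**Figure D2:**
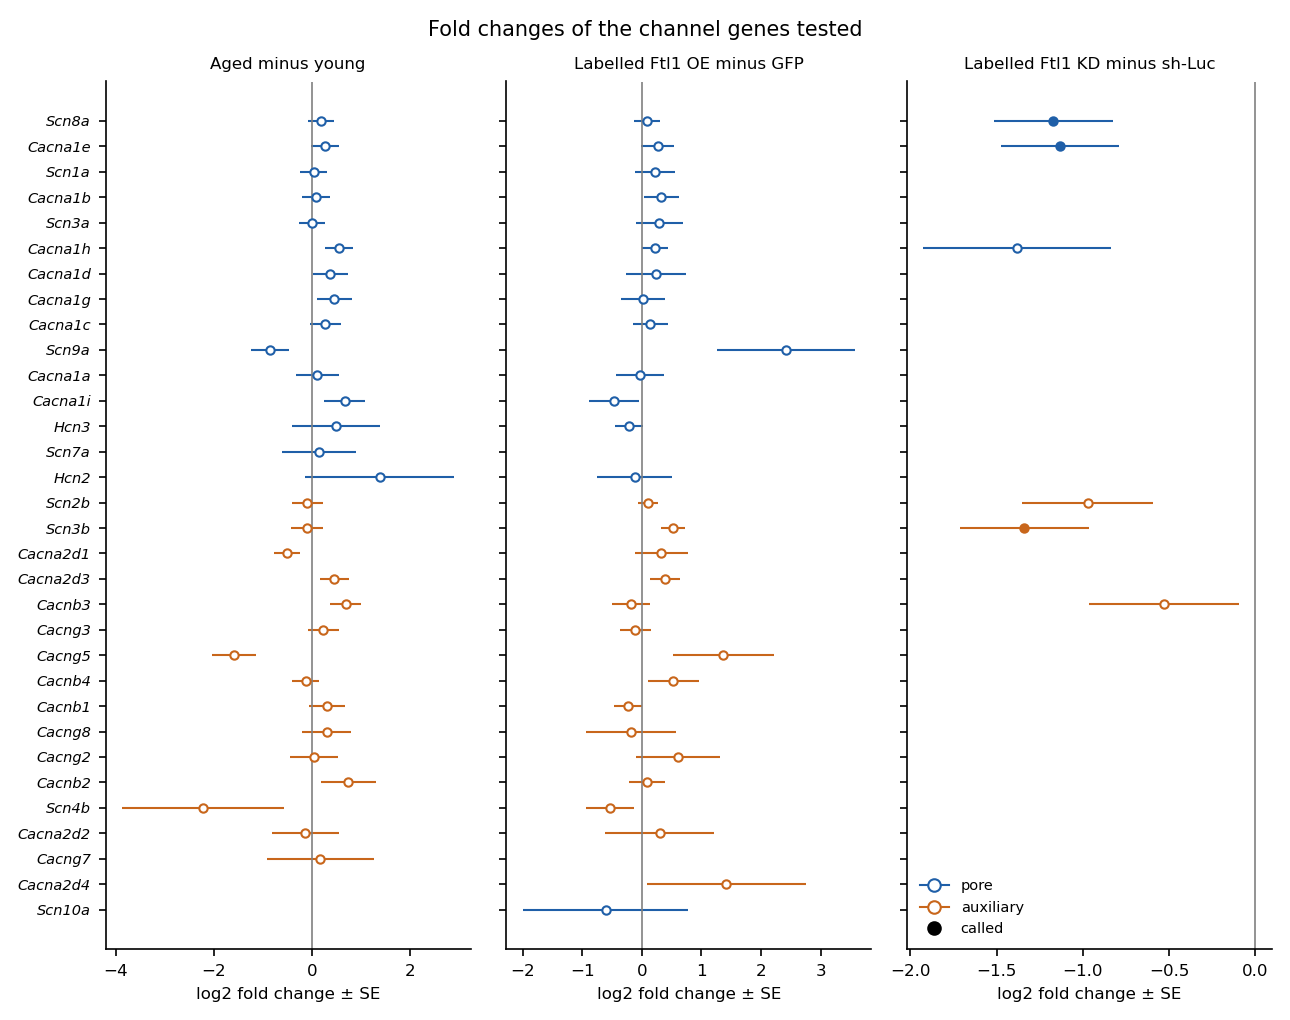
log2 fold change with its standard error (limma on log2 of the normalized count plus 1) of the channel genes described here that were tested, in the aging, overexpression and knockdown experiments, with pore genes in blue, auxiliary genes in orange and called genes filled. Only Scn8a, Cacna1e and Scn3b in the knockdown panel are filled, the axis range differs between panels, and genes without a point were below the limit for testing.

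In the young hippocampus with the Ftl1 virus, no channel gene passed the test either. Of the 43 members, 33 were tested (17 pore, 16 auxiliary). limma called 0 of them, as of all 14099 genes (0%). edgeR and DESeq2 called 0 members as well, again only a description. At an unadjusted limma p no higher than 0.05, 1 member (Scn3b) was higher and 0 were lower in the Ftl1 OE-labelled libraries, where 3.60% of all genes were higher and 3.66% lower. The log2 fold change was above 0 for 22 members and below 0 for 11, against 57.4% of all genes above 0. Its median was 0.14 for the pore genes, 0.31 for the auxiliary genes and 0.10 for all genes tested. The groups overlapped for every one of the 33 members, and did not overlap for 0.582% of all genes.

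Scn3b had the smallest p. It read 2226 to 4314 normalized counts in the 5 GFP controls, with a median of 2949, and 3735 to 6076 in the 7 Ftl1 OE-labelled libraries, with a median of 4271. All 7 Ftl1 OE-labelled libraries lay above 3 of the 5 controls. This gave a log2 fold change of 0.52 (SE 0.20, limma, adjusted p = 0.592; exact permutation p = 0.0265), and 0.39 (SE 0.19) without control replicate 9905. Over the alternatives it lay between 0.39 and 0.63.

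Of the other sodium channel subunits, Scn2b had the smallest error of the 33 members tested. It read 2791 to 4475 in controls and 3215 to 4631 in the Ftl1 OE-labelled libraries, at a log2 fold change of 0.10 (SE 0.17). Scn4b had a log2 fold change of -0.54 (SE 0.40). The pore gene Scn9a read 0 to 71.6 in controls and 11.5 to 178 in the other group, at a log2 fold change of 2.41 (SE 1.16, limma, adjusted p = 0.672). These were low counts, at 2 reads or fewer in 3 controls.

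Scn8a read 2214 to 3416 in controls (median 2950) and 2109 to 4673 in the Ftl1 OE-labelled libraries (median 2620), so the groups covered nearly the same range. Its log2 fold change was 0.09 (SE 0.22). Those of Scn1a (0.22, SE 0.33), Scn3a (0.29, SE 0.39) and the non-member Scn2a1 (0.12, SE 0.34) were also within their errors. In a single library labelled Ftl1 OE, replicate 9918, Scn8a, Cacna1e (2221) and Cacna2d1 (1451) had their highest values of that group.

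Among the 9 classes, the alpha2delta genes had the highest median log2 fold change (0.36). All 4 were above 0 (Cacna2d2 turned below 0 with edgeR and DESeq2), with Cacna2d3 at 434 to 1146 in controls against 679 to 1281 (log2 fold change 0.39, SE 0.25) and Cacna2d1 at 222 to 1533 against 324 to 1451 (0.33, SE 0.45). Cacna2d2 (0.30, SE 0.92) and Cacna2d4 (1.42, SE 1.33) were low genes with wide errors. Of the Cav beta genes, Cacnb4 had a log2 fold change of 0.53 (SE 0.43), Cacnb1 of -0.23 (SE 0.24) and Cacnb3 of -0.18 (SE 0.31).

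One library set several of these values. Control replicate 9905 read 3128 for Cacnb3 against 627 to 1399 in the other 4 controls, 124 for Cacnb4 against 283 to 1015, and 9.47 for Cacng5 against 308 to 1289. Cacng5 had a log2 fold change of 1.37 (SE 0.85) with that library and 0.23 (SE 0.42) without it. The auxiliary median, 0.31 over all libraries, was 0.12 without it and 0.10 without replicate 9918 of the Ftl1 OE-labelled libraries. The pore median was 0.08 and 0.04 in these fits. On the recovered reads, edgeR gave medians of 0.10 for the pore and 0.12 for the auxiliary genes, and DESeq2 0.08 and 0.10, so the distance between the classes was smaller with these tools.

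The calcium channel pores did not separate. Cacna1e read 549 to 1877 in controls and 986 to 2221 in the Ftl1 OE-labelled libraries (log2 fold change 0.27, SE 0.28), and Cacna1h read 1086 to 2262 against 1219 to 2770 (0.22, SE 0.23). Cacna1d (0.24, SE 0.51) and Cacna1i (-0.46, SE 0.42) had wider errors. The HCN genes did not separate either. Hcn3 read 346 to 603 in controls and 341 to 381 in the Ftl1 OE-labelled libraries, a much narrower range, with a log2 fold change of -0.22 (SE 0.23; exact permutation p = 0.0619). Hcn2 had a log2 fold change of -0.12 (SE 0.63).

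The 43 genes took 0.173 to 0.259% of the reads outside Rn45s in the controls and 0.193 to 0.307% in the Ftl1 OE-labelled libraries. The auxiliary genes took more of them than the pore genes in every control (0.117 to 0.139% against 0.0564 to 0.121%). Microglial markers were lower at an unadjusted limma p no higher than 0.05 for 3 of 6 genes in this experiment, summing to 1695 to 3308 in controls and 1104 to 1944 in the Ftl1 OE-labelled libraries. The interneuron markers summed to 6848 to 11392 against 5086 to 7551, with 2 of 7 lower and 1 higher at that p, and the part of either list in the channel values was not tested.

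**Figure D3:**
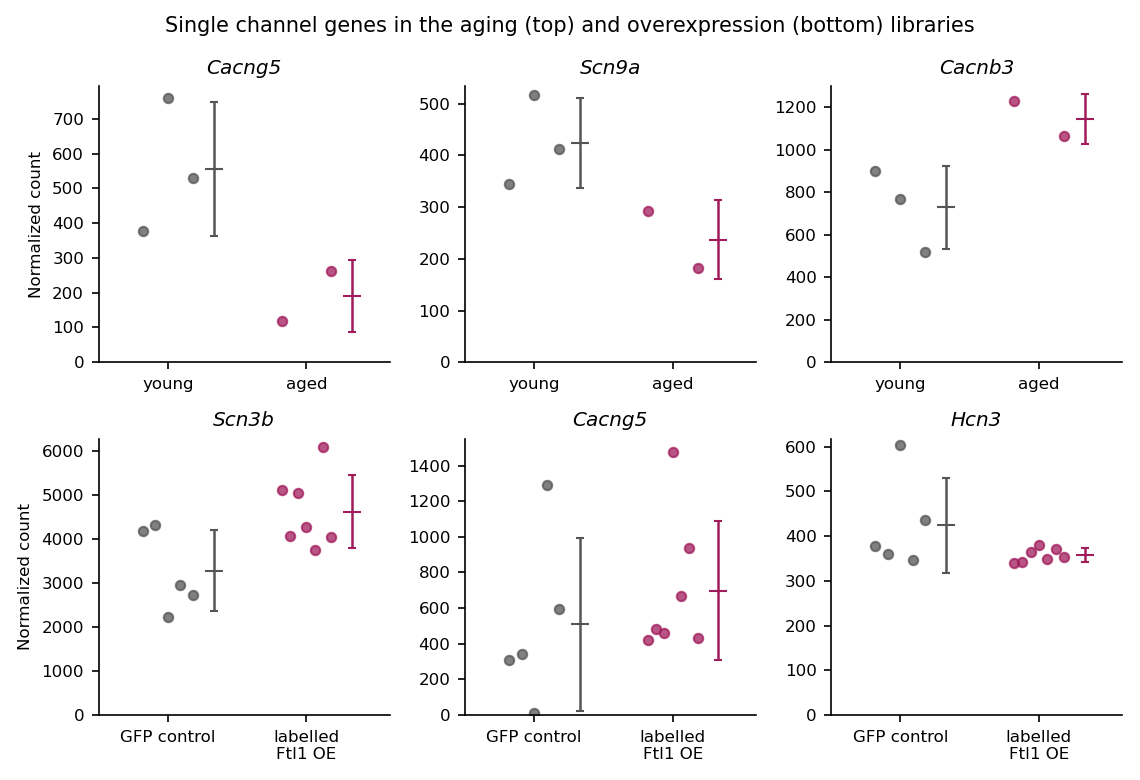
Normalized counts (linear axes from 0) of Cacng5, Scn9a and Cacnb3 in the aging libraries and of Scn3b, Cacng5 and Hcn3 in the overexpression libraries. Each point is 1 library and the bar shows mean ± SD of the group; the aging groups do not overlap in the 3 top panels, the overexpression groups overlap in the 3 bottom panels, and 1 GFP control reads 9.47 for Cacng5.

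In the aged hippocampus with the hairpin virus, 3 channel genes were lower in the Ftl1 KD-labelled libraries than in the sh-Luc controls: the pore genes Scn8a and Cacna1e and the auxiliary gene Scn3b, each by more than 2-fold. These libraries were far shallower than the others, so that only 6 of the 43 members reached a mean normalized count of 10 and were tested, 3 pore genes and 3 auxiliary. Of these 6, limma called 3 lower and 0 higher, where 13.7% of all 1460 genes were called lower and 10.5% higher. At an unadjusted p no higher than 0.05 5 were lower, against 20.7% of all genes, and all 6 had a log2 fold change below 0, as had 50.5% of all genes. For 2 of the 6, Cacna1h and Cacnb3, the limit of 10 was reached in the control group alone, so the filter in part set their direction and the counts over the 6 are given as a description.

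Scn8a lies at chr15:100869858-101045938 on the plus strand (mm10). It read 37.8, 14.9, 39.3 and 28.8 normalized counts in controls 1, 2, 3 and 5, and 13.4, 14.4, 14.6 and 7.35 in replicates 1, 3, 4 and 5 of the Ftl1 KD-labelled libraries. The groups did not overlap, but control 2 lay just above the highest library of the other group. The log2 fold change was -1.17 (SE 0.34, limma, adjusted p = 0.0142; exact permutation p = 0.0286, the smallest that 4 against 4 libraries can give).

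Scn3b lies at chr9:40269217-40291618 on the plus strand. It read 16.04, 24.2, 24.3 and 41.0 in the controls and 11.5, 15.3, 9.11 and 4.41 in the Ftl1 KD-labelled libraries, again with no overlap. The values rest on 13 to 98 reads in the controls and 3 to 17 in the other group. Its fitted log2 difference was -1.34 (SE 0.37, limma, adjusted p = 0.0102; exact permutation p = 0.0286).

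Cacna1e lies at chr1:154390731-154884501 on the minus strand. It read 23.6, 39.1, 37.4 and 90.3 in the controls and 26.8, 21.6, 20.04 and 10.3 in the Ftl1 KD-labelled libraries, so replicate 1 of the latter lay above control 1. The log2 fold change was -1.13 (SE 0.34, limma, adjusted p = 0.0169; exact permutation p = 0.0571). The groups were thus apart for 2 of the 6 members tested, Scn8a and Scn3b, against 23.8% of all genes.

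The other 3 tested members did not pass the adjusted threshold. Scn2b read 25.5, 46.4, 11.2 and 56.0 in the controls and 12.5, 22.5, 10.9 and 14.7 in the Ftl1 KD-labelled libraries, with a log2 fold change of -0.97 (SE 0.38, limma, adjusted p = 0.0611). Cacna1h read 16.99, 10.9, 9.36 and 27.2 against 11.5, 3.61, 1.82 and 7.35 (log2 fold change -1.38, SE 0.54, limma, adjusted p = 0.0622). Cacnb3 read 6.61, 11.3, 31.8 and 13.4 against 8.63, 9.02, 7.29 and 11.8, and 1 control set its mean (log2 fold change -0.53, SE 0.44). The non-member Scn2a1 had a log2 fold change of -0.62 (SE 0.43, limma, adjusted p = 0.291).

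The calls depended on the libraries and the tool. edgeR on the recovered reads called 5 of the 6 and DESeq2 called 4, each lower. The shares of all genes that these tools called are not reported here, so these counts are a description. Without control 5, the library with the most channel reads (959), limma called 1 of 5, Scn8a. Without replicate 5 of the Ftl1 KD-labelled libraries it called 1 of 6, Scn3b, and without control 3 it called 5 of 5. With the 5 libraries of 90000 reads or more alone, a choice made after seeing the data, it called 1 of 5, Scn2b, and Scn8a then had a log2 fold change of -0.82 and an adjusted p of 0.148. With the libraries centred on their medians, 197 genes were called higher and 161 lower in all, against 154 and 200 without centring, and 3 members were again called lower. All of these fits gave a log2 fold change below 0 for each of the members they tested.

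**Figure D4:**
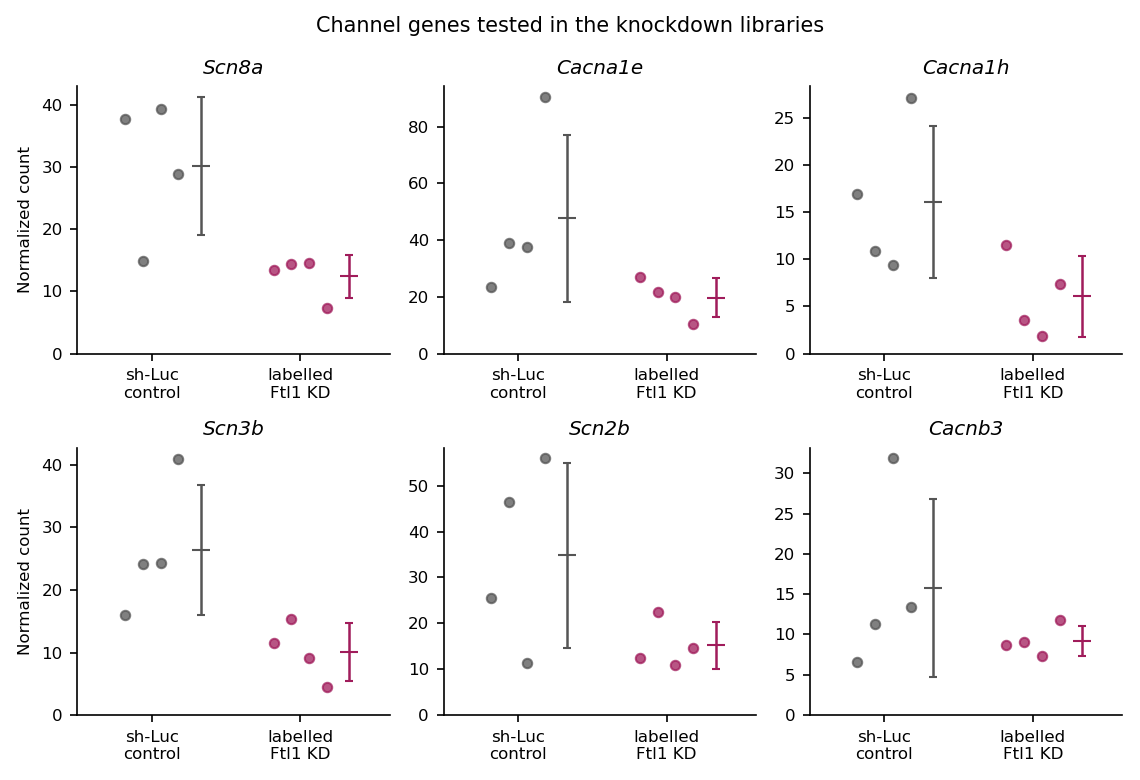
Normalized counts (linear axes from 0) of the 6 channel genes tested in the knockdown experiment, pore genes in the top row and auxiliary genes in the bottom row. Each point is 1 library and the bar shows mean ± SD of 4 libraries; Scn8a and Scn3b have no overlap between groups, and 1 control stands high for Cacna1e (90.3) and for Cacnb3 (31.8).

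The other 37 members could not be tested one by one. Of them 11 had no read in any of the 8 libraries and 26 had some. The group mean was lower in the Ftl1 KD-labelled libraries for 21 of these 26 (10 of 13 pore genes and 11 of 13 auxiliary genes), where it was lower for 57.3% of all genes with reads below the limit. Summed over the 37, the controls read 127, 109, 88.0 and 144 normalized counts and the Ftl1 KD-labelled libraries read 64.2, 69.4, 65.6 and 45.5, with no overlap. These sums rest on 47 to 345 reads in the controls and 31 to 77 in the other group.

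Several genes made up this sum. Cacna2d1 read 2.83, 11.3, 22.5 and 15.5 in the controls and 5.75, 0.902, 1.82 and 4.41 in the Ftl1 KD-labelled libraries. Cacna1a, Cacna1b, Scn1a and Scn3a had control means of 5.57, 10.3, 8.82 and 5.48 and means of 1.41, 5.19, 4.05 and 1.84 in the other group. Scn4b had reads in the controls (mean 1.67) and 0 in all 4 Ftl1 KD-labelled libraries, where a difference was not detectable at this depth. Hcn3 (1.69 against 1.97) was too low to compare, and Hcn4 had no read.

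The whole set was also lower as a share of reads. The 43 genes took 0.382, 0.396, 0.402 and 0.595% of the reads outside Rn45s in the controls and 0.244, 0.257, 0.219 and 0.165% in the Ftl1 KD-labelled libraries. The pore genes took 0.169 to 0.315% against 0.0551 to 0.129%, and the auxiliary genes 0.163 to 0.280% against 0.110 to 0.141%. Neither class overlapped between the groups. The auxiliary minus pore difference in mean log2 level over the 6 tested genes was -0.77 to 0.32 in controls and -0.54 to 0.42 in the other group, so pore and auxiliary genes could not be told apart in this respect.

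**Figure D5:**
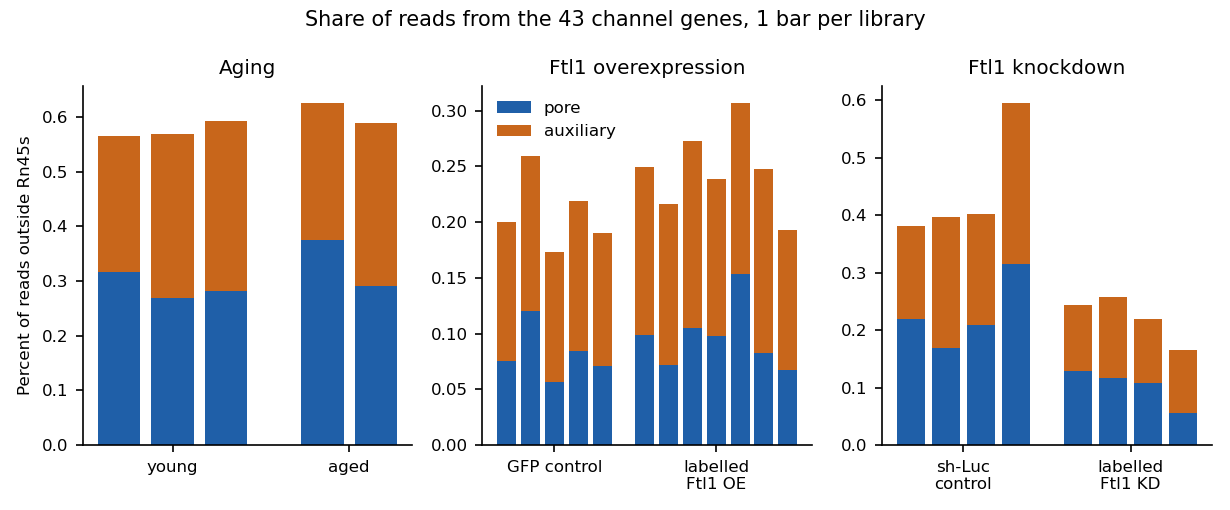
Percent of the reads outside Rn45s that came from the 43 channel genes in each library (bars from 0), with pore genes in blue and auxiliary genes in orange, for the aging, overexpression and knockdown experiments. In the knockdown panel the 4 controls reach 0.382 to 0.595% and the 4 Ftl1 KD-labelled libraries 0.165 to 0.257%; the vertical range differs between panels.

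Other properties of these libraries moved with the groups as well. Rn45s took 31.9 to 55.3% of the reads in the controls and 30.3 to 34.5% in the Ftl1 KD-labelled libraries, and the latter held 48902 to 97104 reads against 68092 to 358560. The nuclear RNAs Malat1, Meg3 and Snhg11 summed to 600.2 to 1194 in the controls and 208 to 308 in the other group, and all 3 were called lower. The oligodendrocyte markers summed to 31.4 to 64.1 against 7.35 to 14.4, and the granule cell markers to 35.6 to 79.1 against 8.82 to 24.4. A single gene made up most of each sum, Mbp (22.2 to 47.2 against 4.41 to 13.5) and C1ql2 (33.7 to 77.4 against 8.82 to 21.9). Both were called lower, and the other genes of these lists were too low to test. The astrocyte markers were higher in sum, at 14.98 to 36.8 against 37.0 to 55.8. Of the 5 astrocyte genes only Slc1a3 was tested, and it was called higher. Gfap went the other way, at 6.27 to 18.9 against 3.64 to 5.75. The summed neuronal markers overlapped, at 137 to 200.1 against 158 to 182. Within the neuronal list, 1 gene was called lower and 1 higher. Slc17a7, the vesicular glutamate transporter of excitatory neurons, read 16.04, 31.5, 31.8 and 28.01 in the controls and 21.1, 13.5, 14.6 and 1.47 in the other group, and was called lower (log2 fold change -1.35, SE 0.46, limma, adjusted p = 0.0327). Gad1, the GABA-synthesizing enzyme of interneurons, read 17, 19.8, 11.2 and 4.18 against 27.8, 33.4, 41.9 and 33.8, with no overlap, and was called higher (1.49, SE 0.36, limma, adjusted p = 0.0038). Of the 7 interneuron markers only 2 were tested, Gad1 and Sst, and Sst had a log2 fold change of -0.36 (SE 0.33) and was not called. The 7 summed to 26.8 to 66.6 in the controls and 55.6 to 78.3 in the other group, with overlap. The CA1 marker Fibcd1 was called lower (-1.47, SE 0.34, limma, adjusted p = 0.00276). Wfs1 (-0.39, SE 0.38) and Mpped1 (0.74, SE 0.45), from the same list of 3 CA1 markers, were not called. The CA1 markers summed to 50.6 to 85.7 in the controls and 34.5 to 66.1 in the other group, with overlap. The differences of Slc17a7 and Fibcd1 are of the size of those of Scn8a, Cacna1e and Scn3b. The part of these in the channel values was not tested.

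Partner proteins of the channels were listed too: the FHF proteins and ankyrins that hold sodium channels, the NALCN leak channel complex, the HCN partner Pex5l, the RGK and STAC regulators, active zone proteins and the calmodulins, 28 genes in the tables. With age 24 were tested and 0 were called by limma (0 higher and 2 lower at an unadjusted p no higher than 0.05, where 5.04% of all genes were lower). The 2 were Stac2 (log2 fold change -1.22, SE 0.39) and Fgf14 (-0.80, SE 0.31), an FHF protein that binds the tail of sodium channels. In the overexpression experiment 26 were tested and 0 called, with 1 higher and 1 lower at an unadjusted limma p no higher than 0.05, Rrad (3.90, SE 1.14), a low gene at 0 in 4 of the 5 controls, and Calm3 (-0.48, SE 0.20).

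In the knockdown experiment 7 partners were tested, 2 were called lower and 0 higher, where 13.7% of all genes were called lower and 10.5% higher. Unc80, which links the NALCN channel to its regulators, read 16.04, 28.6, 39.3 and 26.3 in the controls and 5.75, 8.12, 7.29 and 7.35 in the Ftl1 KD-labelled libraries. Its log2 fold change was -1.76 (SE 0.35, limma, adjusted p = 8.33e-04). Ank3 (ankyrin-G, which anchors sodium channels at the axon initial segment) read 27.4, 12.5, 18.7 and 27.6 against 10.5, 7.22, 9.11 and 5.88, a log2 fold change of -1.26 (SE 0.37, limma, adjusted p = 0.0145). Unc80 was called in all 17 alternatives and Ank3 in 13 of 17, with an adjusted p of up to 0.0674, and the Ank3 call was lost without control 1 and without control 5. Calm2 and Fgf13 had log2 fold changes above 0 (0.24 and 0.86) that did not pass, and Calm3 one of -0.14.

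Set side by side, the 3 genes called in the knockdown experiment had different values elsewhere. The 3 experiments share no libraries. Scn8a had a log2 fold change of 0.19 with age, 0.09 with the Ftl1 virus and -1.17 with the hairpin, Cacna1e had 0.27, 0.27 and -1.13, and Scn3b had -0.11, 0.52 and -1.34. The differences between experiments were not tested, since the tables were normalized separately and differ widely in depth.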

How the data were processed

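Reads had been mapped by the authors to mm10 (STAR), counted per gene (RSEM) and divided by DESeq2 size factors, separately in each of 3 tables, and the deposited values are therefore a normalized signal per gene. The labels describe strand-specific poly(A) libraries and the study's methods a Smart-seq2 protocol, so strand use stays uncertain for genes that overlap an opposite one. The tables' own fold changes and p-values were not used. Whole reads were recovered by undoing the size factors (100% of values within 0.1 of a whole number). All 25 library columns were used.

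Genes with a mean normalized count of 10 or more were tested on log2(normalized count + 1) with limma 3.58.1 (trend, R 4.3.3), separately per experiment, with Benjamini-Hochberg adjustment over all genes tested; a gene was called at an adjusted p of 0.05 or less (with age, also a log2 fold change of 0.5 or more in size). A fold change on this scale understates that of low genes. edgeR 4.0.16 and DESeq2 1.42.0 on the recovered reads were alternatives, with other pseudocounts, filters and scalings, each library left out in turn, and a replicate block. Exact permutation tests were two-sided. The fits were tested on simulated data.

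The members and lists were chosen with earlier results of these data known. Genes were named by rule: every called member, up to 6 with the smallest p in each direction, HCN genes, the brain sodium channel pores and the member of each class with the highest level per kb in young libraries; the others named were chosen after their values were seen. Some members and partners are counted in the totals but not reported here one by one.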

Additional observations from a re-analysis of the deposited data

Results flagged for a closer look

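Of 58 groups of 4 to 7 libraries examined for the members named above and for Scn2a1, 7 held 1 library far from the rest of its group. Chance gives about 1 group in 20 for normally distributed values in independent groups. These values are counts, some near 0, and the groups share libraries, so that rate is only a rough guide. In the GFP controls, replicate 9904 read 92.2 normalized counts for Scn10a (0 to 3.83 in the other 4), and replicate 9905 read 2864 for Cacng3 (932 to 1281). In the libraries labelled Ftl1 OE, replicate 9918 read 198 for Scn4b (427 to 567 in the other 6), 2221 for Cacna1e (986 to 1497) and 1451 for Cacna2d1 (324 to 793), and replicate 9915 read 22.6 for Scn10a (0 to 5.26). In the libraries labelled Ftl1 KD, replicate 5 read 7.35 for Scn8a (13.4 to 14.6 in the other 3), from 5 reads.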

How the results depend on the processing

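In the aging and overexpression experiments no setting called a member. DESeq2 called 138 of all 13712 genes with age and 91 of all 14099 in the overexpression experiment, where limma called 0. These shares are small, so 0 of 33 members is not a result about the channel genes. With 1 library left out, the medians with age were 0.08 to 0.46 for pore and -0.01 to 0.14 for auxiliary genes, and in the overexpression experiment 0.04 to 0.28 and 0.10 to 0.39. In the knockdown experiment the number of members called was 3 in the fit reported. It was 5 of 6 with a pseudocount of 4 and with edgeR, 1 with the replicate block, 1 of 5 in the libraries of 90000 reads or more (chosen after seeing the data), and 1 to 5 when a library was left out. The shares of all genes called in these settings are not reported here. The auxiliary median was -0.40 with no filter on the mean and -1.38 to -0.67 with a library left out. A mean of 100 or more left no member to test. Same-numbered samples did not deviate together (r between -0.054 and 0.024), but with 2 to 4 libraries in a group this check cannot exclude a pairing. With the replicate block, Scn3b had an adjusted p of 0.0691 and Cacna1e one of 0.0922 (limma).

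Some directions turned, none of them for a called member. With age, Scn3a was 0.0065 with median centring, 0.0027 with edgeR, 0.011 with DESeq2 and 0.053 with the replicate block, and Scn4b was 0.35 with edgeR and 0.36 with DESeq2. In the overexpression experiment Scn8a was -0.0032 with median centring, and Scn2a1 was -0.043 with edgeR and -0.071 with DESeq2. With 1 library left out, the log2 fold change with age ranged from -0.21 to 0.21 for Scn3a, -0.96 to 1.93 for Hcn3, -0.11 to 0.18 for Scn1a, -0.44 to 0.25 for Scn2b, -0.19 to 0.94 for Cacna1d and -5.89 to 1.45 for Scn4b. In the overexpression experiment it ranged from -0.00095 to 0.17 for Scn2b, -0.43 to 0.15 for Cacnb3, -0.53 to 0.15 for Hcn2, -0.28 to 0.49 for Cacna1d, -0.24 to 0.16 for Cacng3, -0.055 to 0.41 for Scn1a, -0.26 to 0.39 for Scn2a1, -0.073 to 0.65 for Scn3a and -0.020 to 0.17 for Scn8a. The cause was not tested. Over all knockdown genes, median centring called 197 higher and 161 lower, against 154 and 200 in the fit reported, and no filter called 124 and 210. At 48902 to 358560 reads a library, the knockdown experiment could not test 37 of the 43 members.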
